A study of Caenorhabditis elegans with 45 samples.

Results

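This account compares gene expression in parental worms of the wild Caenorhabditis elegans strain XZ1516 with parental worms labelled N2, the laboratory reference strain. The comparison took the 3 XZ1516 parental libraries and the 3 N2 parental libraries, chosen by their titles, out of 45 RNA sequencing libraries in the study. XZ1516 is a wild isolate from the Hawaiian islands and is among the strains whose genome differs most from N2. All animals were whole hermaphrodites taken on day 1 of adulthood after selfing, and the labels name no treatment. Males had been picked off the plates, per the labels' protocols. The other parental groups were EG4348, CB4856, QX1211, DL238, ECA701 and ECA722. The 3 XZ1516 F1 libraries came from XZ1516 males crossed to N2 fog-2 animals, which make no sperm of their own. RNA of whole worms mixes all tissues, so that fewer cells of a type and less RNA per cell cannot be told apart in any result below. Nothing in the labels says that replicates were separate cultures, although RNA was extracted in 3 batches of 1 replicate per strain, so the p-values measure the spread between these samples only.

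The genotype label of the N2 parental samples names a deletion of fog-2, an F-box gene needed for sperm formation in hermaphrodites, and their strain label is CB4108. Levels are given as CPM, the estimated counts of a gene relative to its library's total after TMM scaling. On chromosome V (20199254 to 20200648 in WBcel235), fog-2 stood at 37.2, 45.9 and 44.7 CPM in the libraries labelled N2. It stood at 37.4, 38.1 and 41.8 CPM in XZ1516, and the groups overlapped. The difference made no call (log2 fold change -0.13 ± 0.07 SE, adjusted p 0.114). These levels show no loss of fog-2 RNA in N2, whereas the label names a deletion. Reads along the gene were not examined, so a deletion that leaves RNA was not tested. In what follows, N2 means the libraries labelled N2. Without N2 replicate 1 fog-2 was called lower in XZ1516 (-0.19, adjusted p 0.0104). With library totals and no further scaling it was called lower too (-0.18, adjusted p 0.0161).

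The XZ1516 libraries held 45645900 to 65630100 estimated counts and the N2 libraries 48301400 to 87302600. Replicates correlated at 0.998 in XZ1516 and at 0.996 to 0.998 in N2 (across genes, which are not independent replicates). N2 replicate 1 lay farthest from its group, with a chi-square per degree of freedom of 37.4 and 43.4 against the other N2 libraries and 7.04 between the others. Its summed level of 17 body wall muscle genes was 6948 CPM against 4315 and 4205 CPM in the other N2 libraries and 5024 to 5941 CPM in XZ1516. Its summed level of pharynx genes was 303 CPM against 143 and 146 CPM. Summed male-specific markers were at 54.3 to 57.8 CPM in N2 and at 47.8 to 53.0 CPM in XZ1516.

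Wild strains of C. elegans differ from N2 mostly on the chromosome arms, where large gene families of environmental response lie. These families include adaptors of ubiquitin ligases, chemoreceptors, lectins, nuclear hormone receptors and detoxification enzymes. Many of their members are known to be missing or strongly altered in one wild strain or another.

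More genes were strongly lower than strongly higher in XZ1516. Of 16424 genes tested, 7320 were called (44.6%) by edgeR's quasi-likelihood test at an adjusted p under 0.05 (Benjamini-Hochberg). Of these, 3903 were lower (23.8%) and 3417 were higher (20.8%), and the median absolute log2 fold change of a called gene was 0.56. At least 2-fold lower were 1763 genes (10.7%) and at least 2-fold higher 832 (5.07%), a ratio of 2.12 to 1. At 4-fold the counts were 967 lower and 372 higher, at 8-fold 621 and 208, and at 32-fold 354 and 87. The excess of lower genes thus grew with the size of the change, while the median log2 fold change over all genes tested was -0.03. The libraries of both strains did not overlap for 1733 of the 2-fold lower and 797 of the 2-fold higher genes, where 53.4% of all genes tested did not overlap.

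**Figure D1:**
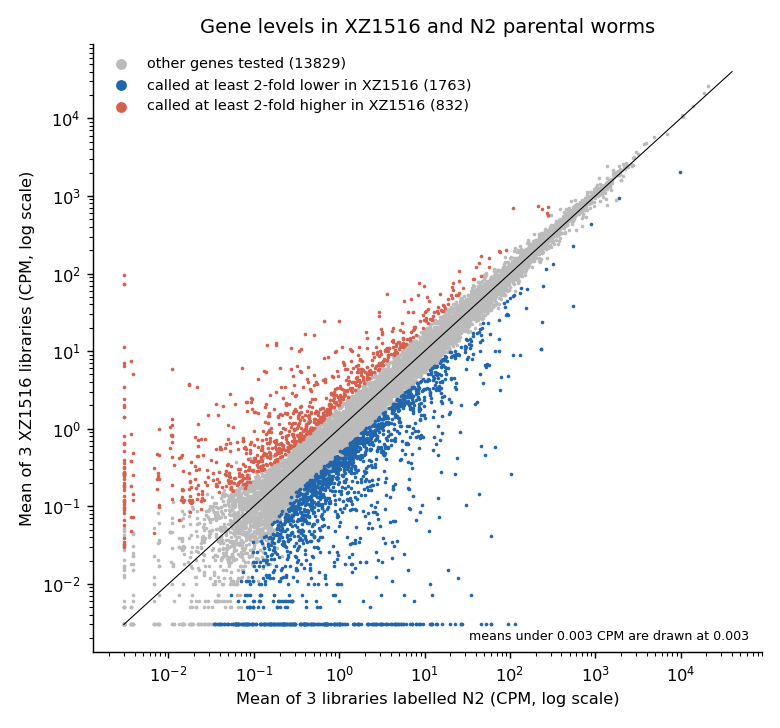
Mean level of each gene tested in the 3 libraries labelled N2 (x axis, CPM, log scale) and the 3 XZ1516 libraries (y axis, CPM, log scale), with 1 point per gene and a line of equal level. The 1763 genes called at least 2-fold lower in XZ1516 lie below the line and outnumber the 832 called at least 2-fold higher; a row of lower genes at the bottom has means under 0.003 CPM.

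The 2-fold lower genes were mostly of low abundance. Among genes whose higher group was under 1 CPM, 17.2% were 2-fold lower and 7.48% 2-fold higher. From 1 to 10 CPM the shares were 16.6% and 7.74%, and from 10 to 100 CPM 3.96% and 2.47%. At 100 CPM and above, 21 genes were 2-fold lower and 15 were 2-fold higher among 2286. In each class of abundance more genes were 2-fold lower than higher. Of the 2-fold lower genes 57.5% carried a sequence name only, against 44.7% of all genes tested and 53.4% of the 2-fold higher genes.

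Many lower genes were not detected in XZ1516. No count was found in any XZ1516 library for 273 of the 1763 genes (15.5%), whereas 50 of the 832 higher genes (6.01%) had none in any N2 library. Of the 273 genes, 7 were also at 0 in all of the 6 other wild strains, 183 in 1 to 5 of them and 83 in none. A count of 0 over the 3 XZ1516 libraries allows a level of up to 0.0178 CPM (3 counts over the group; bounds on folds use counts pooled over the 3 libraries of each group; PCR reads carry no molecular identifiers, so such limits cover counting error only).

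The excess was not equal across wild strains. These comparisons share the N2 libraries, and their counts are given side by side. EG4348 had 1290 genes 2-fold lower (7.85%) and 422 higher (2.57%), a larger share of lower genes than XZ1516 (75.4% against 67.9% of 2-fold calls). CB4856 had 1007 lower (6.13%) and 693 higher (4.22%). DL238 had 911 (5.55%) and 856 (5.21%), and ECA722 had 1069 (6.51%) and 1045 (6.36%). In QX1211 and ECA701 the balance lay on the other side, with 1038 lower (6.32%) against 1341 higher (8.16%) and 1464 lower (8.91%) against 1823 higher (11.1%). XZ1516 thus had the highest number of 2-fold lower genes among the 7 strains and the second highest share.

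Set directly against the other wild strains, with no N2 library in the contrast, XZ1516 kept an excess of lower genes. Against the mean of the other 6 wild strains 1320 genes were 2-fold lower (8.04%) and 817 2-fold higher (4.97%). Against single strains the lower calls outnumbered the higher ones in 5 of 6 cases, with 1334 (8.12%) to 889 (5.41%) for CB4856, 2359 (14.4%) to 806 (4.91%) for QX1211, 2071 (12.6%) to 891 (5.42%) for DL238, 2223 (13.5%) to 968 (5.89%) for ECA701 and 1572 (9.57%) to 799 (4.86%) for ECA722. The exception was EG4348, with 1196 lower (7.28%) and 1241 higher (7.56%). Of the 1763 genes lower than N2, 1048 were also called lower than the mean of the other wild strains, 75 were called higher than it and 640 were not called (20% of all genes tested were called lower and 21.8% higher). Against single strains the shares of all genes called lower were 27.6% for QX1211, 23.4% for ECA701, 23.2% for DL238, 22.6% for ECA722, 20.6% for CB4856 and 20.2% for EG4348. The shares called higher were 22.7%, 22.5%, 20.4%, 18.4%, 17.9% and 19.7% in the same order. In 337 genes (19.1% of the 1763) the level was called lower than in every other wild strain, and 192 of the 832 higher genes (23.1%) were called higher than in every other wild strain. Over all genes tested these counts were 587 and 526.

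**Figure D2:**
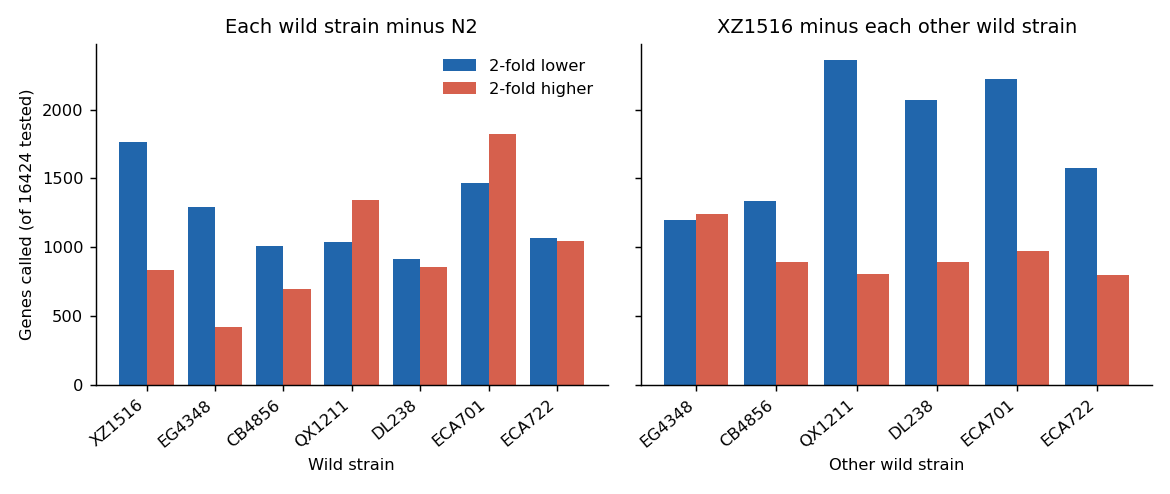
Number of genes called at least 2-fold lower (blue) and higher (red), of 16424 tested. The left panel sets each wild strain against N2 and the right panel sets XZ1516 against each other wild strain. XZ1516 has 1763 lower and 832 higher genes against N2, and in the right panel lower calls outnumber higher ones against every strain but EG4348 (1196 lower, 1241 higher).

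The hybrid offspring gave a second measurement in other libraries, where both alleles were read in the same animals. A minimum of 10 reads specific to an allele, on average over the F1 libraries, was met by 647 of the 2-fold lower genes. Allele differences below are in the authors' estimated counts per allele, and allele-specific reads are those whose matches were all to 1 allele of 1 gene. The XZ1516 allele was called lower in 224 of the 647 genes and higher in 9. Of all 6079 genes tested for alleles 7.8% were called lower and 12.1% higher. The median allele difference of the 647 genes was -0.91 (log2), against 0.05 over the 5678 genes with such reads among the 16424. Of the 2-fold higher genes 323 were measurable, with the XZ1516 allele called higher in 168 and lower in 6 and a median of 1.56. These calls rested on the number of F1 libraries: without F1 replicate 2, 83 lower and 77 higher alleles were called. Without F1 replicate 1 the count of lower alleles was 134. Genes at 0 in XZ1516 were rarely measurable, at 24 of 273, and in these a median of 96.4% of allele-specific reads came from the N2 allele. Reads of a diverged XZ1516 allele could be lost in the F1 as well. For the lower genes, measurable in the F1 or not, such loss and lower expression cannot be told apart here.

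**Figure D3:**
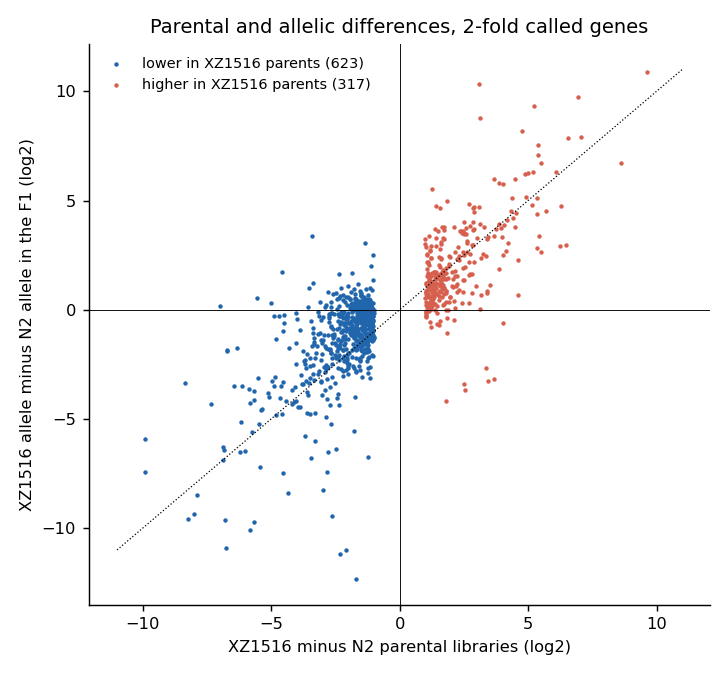
Log2 difference between the parental libraries (x axis, XZ1516 minus N2) and between the alleles in the F1 libraries (y axis, XZ1516 allele minus N2 allele) for 623 genes 2-fold lower (blue) and 317 genes 2-fold higher (red) in XZ1516, with 1 point per gene; the dotted line marks equal differences. Genes at 0 in a parental group (30) are not drawn. Most blue points lie below 0 and most red points above 0 on the y axis.

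The lower genes were concentrated on certain chromosome arms. The share of tested genes that was 2-fold lower was 15.9% on chromosome V, 14.4% on II and 11.1% on IV, and 7.56% on I, 6.33% on III and 6.26% on X. With each chromosome cut into 3 parts of equal length, 26.7% were 2-fold lower in the left part of II, 23.7% in the right part of V and 18.3% in the left part of V. The middle parts of II and V had 6.72% and 8.62%. On X the parts ranged from 6.16% to 6.42%. The share of 2-fold higher genes ran from 1.48% in the middle part of I to 9.64% in the right part of V. Of the genes at 0 in XZ1516, 87 lay in the left part of II and 54 in the right part of V.

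Some neighbouring genes were lower together. There were 42 runs of at least 4 adjacent tested genes that were all 2-fold lower, with 222 of the 1763 lower genes. Runs of higher genes were not counted. The longest run held 13 genes on WBcel235 chromosome II (1785262 to 1846237), among them fbxb-13, fbxb-10, fbxa-3, fbxc-19, math-41, math-40 and math-39, with 6 at 0 in XZ1516. A run of 10 genes on II (2027612 to 2052747) held bath-1, bath-3, bath-5, btb-4, bath-19, bath-20, bath-24, math-1 and fbxb-35, with 8 at 0. Another 7 genes on V (7440107 to 7457598) included the trypsin-like protease genes try-13, try-12, try-11 and try-8 and the receptor gene nhr-141, with none at 0.

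The most frequent named families among the lower genes were those of F-box, MATH and BATH genes. F-box proteins (fbxa, fbxb and fbxc genes) hold substrates for SCF ligases. Proteins with both a MATH and a BTB domain (bath genes) do so for Cullin-3 ligases, and math genes share the MATH domain only. Of 285 F-box genes tested 107 were 2-fold lower and 22 higher, with a median log2 fold change of -0.86 (-0.85 with genes at 0 set to their bound) against -0.03 over all genes. Of 83 MATH and BATH genes 41 were 2-fold lower and 11 higher, with a median of -1.29 (-0.97 with genes at 0 at their bound). Set against the mean of the other 6 wild strains, 44 F-box genes were 2-fold lower and 59 higher in XZ1516 (median 0.12), so lower genes did not outnumber higher ones there. The MATH and BATH list had 19 genes 2-fold lower and 17 higher against the same mean (median -0.38). Over all genes tested 8.04% were 2-fold lower and 4.97% higher in that comparison, and 10.7% and 5.07% against N2. Both lists gave 148 of the 1763 lower and 33 of the 832 higher genes. Without them 1615 lower and 799 higher genes remained, 66.9% of them lower.

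**Figure D4:**
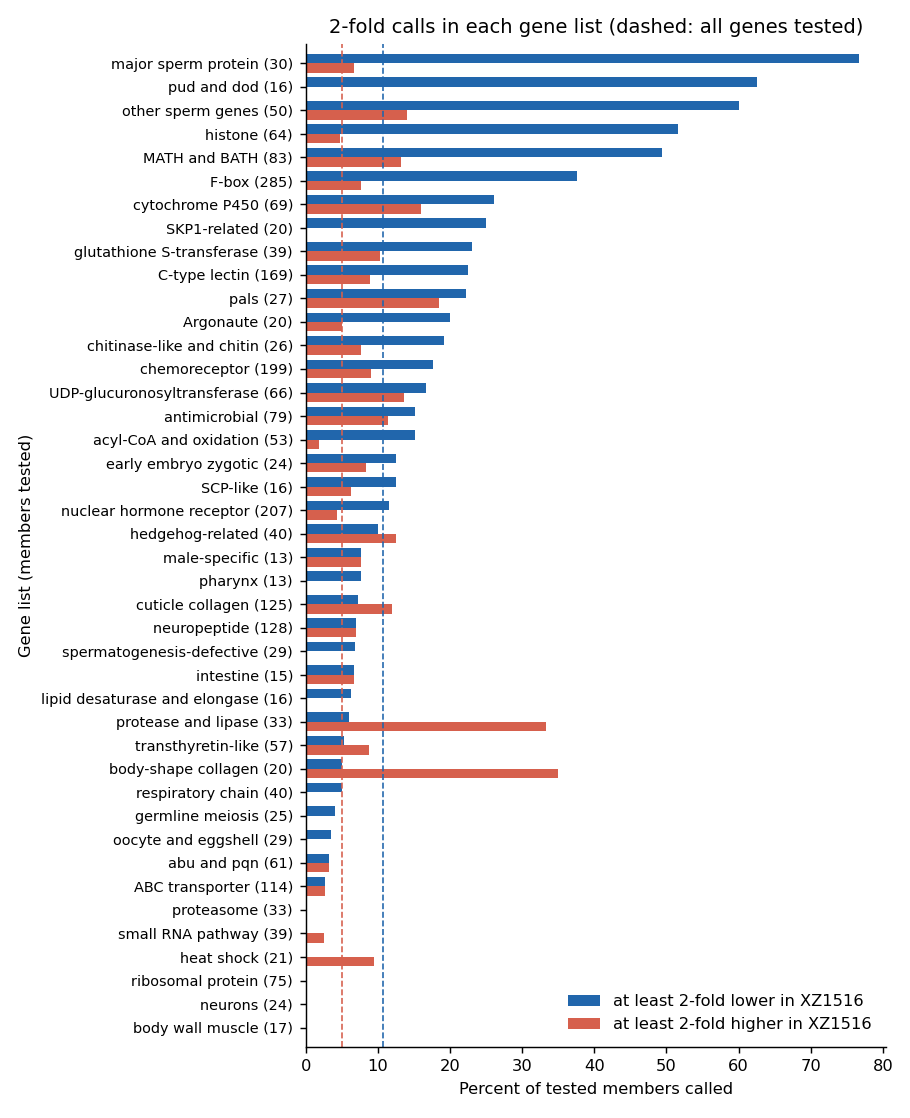
Percent of tested members called at least 2-fold lower (blue) and at least 2-fold higher (red) in XZ1516 than N2 for 42 gene lists with at least 13 members tested (number in brackets). Dashed lines give the same over all genes tested, 10.7% lower and 5.07% higher; major sperm protein, pud and dod, other sperm, histone, MATH and BATH, and F-box lists lie farthest above the blue line.

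Summed over the F-box list, N2 held 1034, 994 and 1014 CPM and XZ1516 695, 711 and 700 CPM, so the groups did not overlap. The F1 libraries lay between them at 791, 831 and 789.5 CPM. The MATH and BATH sum was 1354 to 1443 CPM in N2 and 1190 to 1221 CPM in XZ1516.

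The gene bath-5 (WBGene00019141; II, 2030753 to 2031952, minus strand) had 24.5, 29.1 and 29.4 CPM in N2 and 0 counts in the 3 XZ1516 libraries. It was at least 1588-fold lower, and it was listed at 0 in QX1211, ECA701 and ECA722 as well. Its neighbour in the family bath-2 was at 21.4 to 24.4 CPM in N2 and at 0 in XZ1516, at least 1299-fold lower. The gene math-26 (II, 1771647 to 1774942) had 23.1, 24.3 and 25.7 CPM in N2 and 2 counts over XZ1516, a ratio of 2074 (95% exact binomial interval of counting error 574 to 17133); it overlaps math-3 in the annotation. Among F-box genes fbxa-115 was at 2.36 to 2.88 CPM in N2 and 0 in XZ1516 (at least 154-fold lower), and fbxb-54 was at least 135-fold lower. On the other side math-34 rose from 0.288 to 0.404 CPM in N2 to 5.47 to 5.76 CPM in XZ1516 (log2 fold change 4.03 ± 0.20 SE, adjusted p 3.22e-19). Its XZ1516 allele was also higher in the F1 (2.50 ± 0.29, adjusted p 0.00252). The F-box gene fbxa-102 was at 0 in N2 and at 0.465 to 0.572 CPM in XZ1516, at least 39.3-fold higher. The products of SKP1-related genes join F-box proteins to the ligase. Of 20 such genes 5 were 2-fold lower and none higher, where 10.7% of all genes were lower and 5.07% higher. The lowest of them was skr-13, at 3.73 to 9.71 CPM in N2 and 0.303 to 0.633 CPM in XZ1516 (-3.61 ± 0.43, adjusted p 7.78e-09).

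The pud genes encode proteins first found to be raised in mutants of the insulin receptor daf-2. Their cluster of 6 genes on V (2322038 to 2330930) was lower as a whole, with 5 members at 0 in XZ1516. The gene pud-1.2 (WBGene00021236) had 84.3, 105 and 98.3 CPM in N2 and 0 in each XZ1516 library, at least 5504-fold lower. The pair pud-2.1 and pud-2.2, which are identical copies and cannot be told apart by counting, were each at 57.0 to 62.4 CPM in N2 and at 0 in XZ1516 (at least 3439-fold lower). In other strains pud-1.2 was listed at 0 in EG4348, QX1211 and ECA701, and stood at 145 CPM in CB4856, 334 in DL238 and 354 in ECA722. The dod genes are named as targets downstream of the transcription factor DAF-16. Of 16 pud and dod genes 10 were 2-fold lower and none higher, where 10.7% of all genes were lower and 5.07% higher. Their sum was 378 to 388 CPM in N2 and 157 to 167 CPM in XZ1516.

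Sperm genes were lower in part. Major sperm proteins form the cytoskeleton of the nematode's crawling sperm and signal to oocytes. Of 30 msp genes tested 23 were 2-fold lower and 2 higher (median -2.16), where 10.7% of all genes were lower and 5.07% higher. The msp sum was 182, 222 and 171 CPM in N2 and 47.7, 52.5 and 41.0 CPM in XZ1516. With allele-aware gene totals it was 158 to 204 CPM in N2 and 61.5 to 78.7 CPM in XZ1516, so the gap narrowed and the groups still did not overlap. The F1 libraries lay at 413, 134 and 163 CPM. The other wild strains had mean msp sums of 77.7 to 269 CPM.

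The gene msp-36 (WBGene00003432; IV, 10095433 to 10095816, plus strand) had 11.7, 13.3 and 11.3 CPM in N2 and 1 count over the XZ1516 libraries, a ratio of 2052 (interval 368 to 81088). In each other wild strain it was at 4.23 to 11.0 CPM. The gene msp-77 was at 6.42 ± 0.603 CPM in N2 (SD, n = 3) and had 3 counts in XZ1516 (ratio 362, interval 124 to 1757), and its XZ1516 allele was lower in the F1 (-3.35 ± 0.26, adjusted p 0.000524). The msp genes are close copies of each other, and the split of reads among single members is uncertain.

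Other genes of sperm gave a different picture. Among all genes tested 10.7% were 2-fold lower and 5.07% higher. Of 29 genes of the spe and fer-1 list, which are needed to make or activate sperm, 2 were 2-fold lower (6.90%). In this list 4 genes were called higher by less than 2-fold and 23 were not called. Their sum was 178 to 198 CPM in N2 and 205 to 206 CPM in XZ1516, and with allele-aware totals the groups overlapped (179 to 204 CPM and 196 to 202 CPM). The sperm families ssp, ssq, msd, nspd and nspc with gsp-3 and gsp-4 had 30 of 50 members 2-fold lower and 7 higher. The sum of this last list was 245 to 277 CPM in N2 and 178 to 198 CPM in XZ1516, but with allele-aware totals it was 229 to 256 CPM in N2 and 243 to 285 CPM in XZ1516, and the groups overlapped.

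Histone genes supply the spools of chromatin. Of 64 members 33 were 2-fold lower and 3 higher (median -1.75), where 10.7% of all genes were lower and 5.07% higher. A run of 12 histone genes on II (13817760 to 13827709), his-16 to his-9 with his-25, his-26, his-44 and his-43, was lower throughout. Of the 64 genes 30 share their sequence name in the annotation with an identical copy, so that reads can move among copies. The histone sum was 510 to 592 CPM in N2 and 494 to 523 CPM in XZ1516, and the groups overlapped. The polyadenylated fraction was sequenced, which holds little of the replication-dependent histone RNA. The variant histone H3 gene his-69 rose from 0.0654 to 0.0807 CPM in N2 to 5.89 to 6.55 CPM in XZ1516 (6.40 ± 0.34, adjusted p 1.45e-18), and it was at 4.51 CPM in ECA701 and 4.89 CPM in ECA722.

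Detoxification enzymes changed in both directions. Among all genes tested 10.7% were 2-fold lower and 5.07% higher. Cytochromes P450 oxidise foreign compounds, and 18 of 69 were 2-fold lower (26.1%) and 11 higher (15.9%), with a median of -0.25. UDP-glucuronosyltransferases, which conjugate the products, had 11 of 66 lower (16.7%) and 9 higher (13.6%). Glutathione S-transferases had 9 of 39 lower (23.1%) and 4 higher (10.3%).

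The cyp-35 subfamily, which is made in the intestine and is induced by many foreign compounds, held the largest contrasts among the P450 genes. The gene cyp-35A3 (WBGene00019565; V, 4022609 to 4024482, plus strand) was at 18.9, 19.1 and 18.9 CPM in N2 and had 3 counts in XZ1516, a ratio of 1065 (interval 364 to 5166). Its XZ1516 allele gave 2 allele-specific F1 reads and its N2 allele 325 (log2 difference -7.43 ± 0.72, adjusted p 0.00123). The gene cyp-35B1 stood at 3.43 to 3.54 CPM in N2 and 0 to 0.0865 CPM in XZ1516 (-6.77 ± 0.30, adjusted p 5.45e-21), and all 188 allele-specific F1 reads were from N2. The gene cyp-35A4 fell likewise (-6.72 ± 0.31, adjusted p 1.26e-20), but its allele difference in the F1 was not called (-1.91 ± 0.89, adjusted p 0.194). In the opposite direction cyp-35A1 (V, 7359929 to 7361773) rose from 0.141, 0.150 and 0.251 CPM to 12.6, 12.5 and 13.4 CPM (6.09 ± 0.23, adjusted p 6.04e-23). Its XZ1516 allele gave 710 allele-specific reads in the F1 and its N2 allele 9 (6.30 ± 0.36, adjusted p 0.000137). Chosen after their values were seen, cyp-35C1 fell from 36.1 to 41.4 CPM to 1.99 to 2.29 CPM and cyp-35A2 from 128 to 133 CPM to 53.2 to 60.7 CPM. The members of the subfamily thus did not move together.

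The conjugating enzyme gene ugt-64 fell from 45.3, 45.0 and 44.7 CPM to 4.69, 5.36 and 5.17 CPM (-3.15 ± 0.05, adjusted p 3.80e-34). It overlaps C07G3.10 in the annotation. Its XZ1516 allele was lower in the F1 by a like amount (-2.80 ± 0.12, adjusted p 3.94e-05). The transferase gene gst-41 had 1.60 to 2.40 CPM in N2 and 1 count in XZ1516, and all 108 allele-specific F1 reads were from N2. The metallothionein gene mtl-2, whose product binds metals, was at 6.74 to 7.68 CPM in N2 and 0.358 to 0.605 CPM in XZ1516 (-3.91 ± 0.14, adjusted p 2.22e-24).

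Argonaute proteins carry the small RNAs that silence genes, and single members of this family changed strongly. The largest change was in vsra-1 (WBGene00007297; I, 9673664 to 9678557, minus strand), at 66.9, 69.1 and 66.1 CPM in N2 and 0.698, 0.557 and 0.476 CPM in XZ1516. This was 116-fold lower (log2 fold change -6.85 ± 0.08 SE, adjusted p 1.61e-39). The other wild strains had 56.7 to 92.7 CPM, and XZ1516 was lower than their mean by a like amount (-6.99, adjusted p 6.94e-41). In the F1 the N2 allele gave 623 allele-specific reads and the XZ1516 allele 8, and the level was 36.4 CPM.

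A second Argonaute gene, sago-2, which acts with secondary small RNAs, rose from 10.3, 10.4 and 8.87 CPM in N2 to 74.2, 65.0 and 71.1 CPM in XZ1516 (2.83 ± 0.07, adjusted p 5.08e-30). Its level was spread widely among the other wild strains, from 7.89 CPM in DL238 to 118 CPM in ECA701, and its XZ1516 allele was higher in the F1 (1.63 ± 0.10, adjusted p 0.000146). The germline Argonaute gene ppw-2, also known as wago-3, was at 155, 160 and 163 CPM in N2 and 68.8, 63.6 and 59.7 CPM in XZ1516 (-1.31 ± 0.07, adjusted p 5.99e-19). In the F1 ppw-2 stood at 139 CPM. Of 20 Argonaute genes 4 were 2-fold lower (20%) and 1 higher (5%), where 10.7% of all genes were lower and 5.07% higher. The count of 2-fold lower Argonaute genes fell to 2 without XZ1516 replicate 2 or without N2 replicate 2. In the list of RNA interference machinery 1 of 39 genes was 2-fold higher, the RNA-dependent RNA polymerase gene rrf-2 (1.38 ± 0.07, adjusted p 1.15e-19), and none was 2-fold lower.

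**Figure D5:**
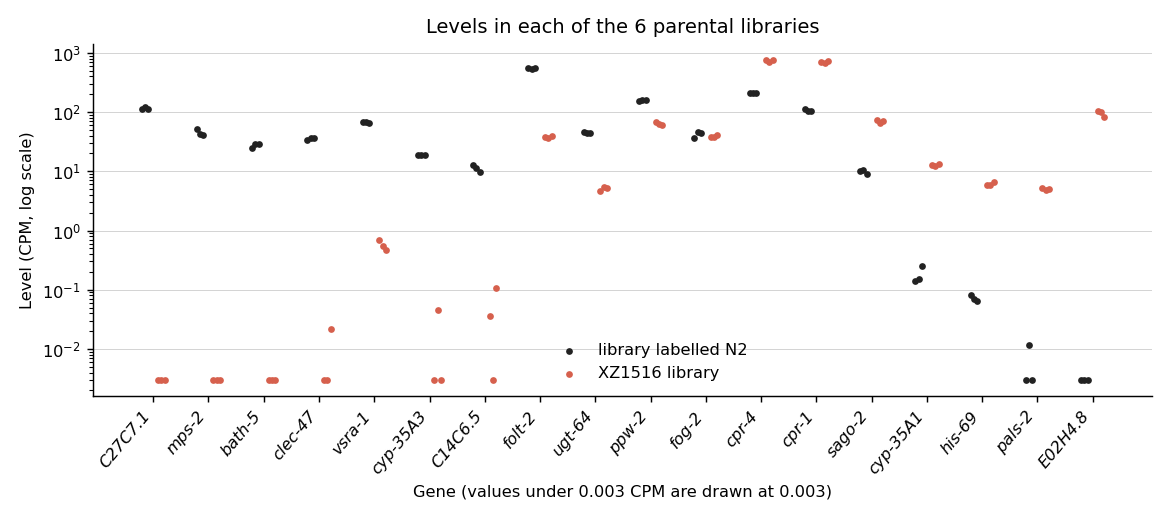
Level of 18 genes in each of the 6 parental libraries (y axis, CPM, log scale; values under 0.003 CPM drawn at 0.003), with 3 black points for N2 and 3 red points for XZ1516 per gene. The groups are apart for every gene drawn except fog-2; vsra-1 is at 66.1 to 69.1 CPM in N2 and at or under 0.698 CPM in XZ1516.

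Genes of defence and pathogen response were mixed. Among all genes tested 10.7% were 2-fold lower and 5.07% higher. Of 169 C-type lectin genes, many of them induced by pathogens, 38 were 2-fold lower (22.5%) and 15 higher (8.88%), with a median of -0.45. Their summed level was 2951 to 3014 CPM in N2 and slightly more, 3039 to 3102 CPM, in XZ1516, and with allele-aware totals the groups overlapped (2962 to 3110 CPM and 2960 to 3134 CPM). The lectin gene clec-47 was at 33.6, 35.9 and 36.8 CPM in N2 and had 1 count in XZ1516 (ratio 6027, interval 1082 to 238100), and all 18 allele-specific F1 reads were from N2. The lectin gene clec-97 fell from 13.4 to 15.7 CPM to 0.0716 to 0.216 CPM (-6.89 ± 0.18, adjusted p 1.46e-28); it overlaps clec-98. It was at 8.83 to 16.8 CPM in each other wild strain, and its allele difference in the F1 was -6.87 ± 0.36 (adjusted p 8.25e-05).

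The pals genes belong to the response to intracellular pathogens, which the pair pals-22 and pals-25 switches off and on. Of 27 members 6 were 2-fold lower (22.2%) and 5 higher (18.5%), where 10.7% of all genes were lower and 5.07% higher. The neighbours pals-22 and pals-25 on III, named after their values were seen as part of a run of 6 lower genes, were at 2.74 to 2.97 CPM and 2.56 to 3.02 CPM in N2. In XZ1516 pals-22 was at 1.10 to 1.54 CPM (-1.13 ± 0.19, adjusted p 5.17e-06) and pals-25 at 0.648 to 0.843 CPM (-1.88 ± 0.17, adjusted p 7.55e-12). The gene pals-2 had 1 count over the N2 libraries and 5.15, 4.88 and 5.08 CPM in XZ1516, a ratio of 1147 (interval 205 to 45339). No other wild strain had more than 0.0754 CPM of pals-2, and all 105 allele-specific F1 reads were from the XZ1516 allele. The infection response gene irg-6 was at 0 in N2 and 1.76 to 2.27 CPM in XZ1516, at least 154-fold higher, but every other wild strain had 1.74 to 3.20 CPM, and the difference from their mean made no call (-0.11, adjusted p 0.506). The lysozyme gene lys-10 rose from 0.251 to 0.444 CPM to 10.2 to 11.1 CPM (4.91 ± 0.21, adjusted p 1.91e-21).

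Digestive enzymes moved against the general trend. Of 33 genes for aspartyl and cathepsin-like proteases and lysosomal lipases 11 were 2-fold higher and 2 lower. Their sum was 7623 to 7995 CPM in N2 and 9936 to 10525 CPM in XZ1516, with no overlap, and was 7885 to 8360 CPM in the F1. The gene cpr-1, for a cathepsin B-like protease of the gut, was at 111, 106 and 106 CPM in N2 and 699, 662 and 723 CPM in XZ1516 (2.69 ± 0.06, adjusted p 6.97e-30). The related cpr-4 rose from 209, 213 and 211 CPM to 757, 703 and 744 CPM (1.80 ± 0.05, adjusted p 8.38e-29). In the F1 its alleles were level (0.00 ± 0.03, adjusted p 0.991), on 13509 reads of the XZ1516 allele and 13456 of the N2 allele. Among all genes tested 5.07% were 2-fold higher, 10.7% 2-fold lower and 20.8% called higher by any amount. The intestine markers, which include cpr-1, had 1 of 15 members 2-fold higher (6.67%) and 1 lower, and 8 were called higher in all. Their sum was 3135 to 3381 CPM in N2, 4828 to 5161 CPM in XZ1516 and 3263 to 3490 CPM in the F1.

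Several genes at 100 CPM or more in N2 were at least 2-fold lower in XZ1516. The gene folt-2, of the folate transporter family, was at 553, 533 and 547 CPM in N2 and 37.9, 36.6 and 40.2 CPM in XZ1516 (-3.83 ± 0.06, adjusted p 1.61e-34). It ranged from 4.82 CPM in QX1211 to 468 CPM in CB4856, so that QX1211 lay below XZ1516. The F1 level was 246 CPM, and the N2 allele gave 88.8% of the allele-specific reads. The copies clec-209 and F56A4.2 were each at 228 to 243 CPM in N2 and 9.90 to 11.3 CPM in XZ1516 (-4.44 ± 0.06, adjusted p 5.32e-35), and cannot be told apart. The gene C27C7.1 (WBGene00007766; I, 11439289 to 11440709, plus strand) was at 112, 123 and 110 CPM in N2 and at 0 in XZ1516, at least 6478-fold lower. Below 100 CPM, the potassium channel subunit gene mps-2 was at 52.7, 42.9 and 41.8 CPM in N2 and at 0 in XZ1516, at least 2505-fold lower. It overlaps K01A2.4. In the other wild strains mps-2 ranged from 0.00436 CPM in ECA701 to 81.2 CPM in DL238.

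Genes of oocytes and eggs showed many small increases. Of 29 genes for oocyte, eggshell and maternal RNA regulation 25 were called higher, each by less than 2-fold, and 1 was called lower (median 0.26; 20.8% of all genes tested were called higher). Chosen after their values were seen, the eggshell gene cbd-1 rose by 0.28 ± 0.07 (log2; adjusted p 0.000882) and the oocyte gene oma-1 by 0.25 ± 0.06 (adjusted p 0.000354). The exception was egg-5, at 319 ± 17.3 CPM in N2 and 132 ± 5.86 CPM in XZ1516 (SD, n = 3; -1.28 ± 0.07, adjusted p 4.67e-18), while its near-identical paralog egg-4 was called higher (0.45 ± 0.07). Reads of this pair can move from one to the other, and with allele-aware totals the value of egg-5 was -0.55.

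The yolk protein genes hold a similar case. The gene vit-4 was at 8965 to 11315 CPM in N2 and 1851 to 2245 CPM in XZ1516 (-2.28 ± 0.08, adjusted p 2.34e-24), and with allele-aware totals the difference was -0.39. The near-identical genes vit-3 and vit-5 were not called with kallisto sums, and with allele-aware totals they were called higher (0.57 and 0.24). The vit sum overlapped between the groups with kallisto sums.

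Nuclear hormone receptors, a large family of transcription factors in the worm, and chemoreceptors had members in both directions. Of 207 nuclear hormone receptor genes tested 24 were 2-fold lower (11.6%) and 9 higher (4.35%), and of 199 chemoreceptor genes 35 were lower (17.6%) and 18 higher (9.05%), where 10.7% of all genes were lower and 5.07% higher. With allele-aware totals 22 chemoreceptor genes were 2-fold lower. The receptor gene nhr-243 fell from 4.28, 4.40 and 4.49 CPM to 0.0179, 0.0753 and 0 CPM (-6.88 ± 0.25, adjusted p 1.31e-23), and the F1 gave 320 allele-specific reads of the N2 allele and 4 of the XZ1516 allele. The chemoreceptor gene sri-40 fell from 42.3 to 47.8 CPM to 0.555 to 0.649 CPM (-6.25 ± 0.11, adjusted p 2.85e-31). The chemoreceptor gene str-77 was at 0, 0 and 0.0654 CPM in N2 and 3.45, 3.39 and 3.35 CPM in XZ1516 (6.94 ± 0.68, adjusted p 1.15e-10), with at most 0.101 CPM in any other wild strain. All 319 allele-specific F1 reads of str-77 were from the XZ1516 allele.

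Cuticle collagens had members in both directions. Of 125 genes tested 28 were called lower and 23 higher, near the shares of all genes tested (23.8% and 20.8%). Of the 125, 9 were 2-fold lower (7.2%) and 15 2-fold higher (12%), where 10.7% of all genes were lower and 5.07% higher. The median log2 fold change of the collagens was -0.05. Their summed level was 30448 to 35862 CPM in N2 and 27734 to 29276 CPM in XZ1516. Against the mean of the other wild strains 24 were 2-fold lower and 10 higher in XZ1516 (8.04% and 4.97% of all genes tested). The gene col-40 rose from 0.0871 to 0.202 CPM to 10.4 to 13.2 CPM (6.47 ± 0.40, adjusted p 1.91e-16). For col-92 the count source decided the result: it was at 97.1 to 114 CPM in N2 and 0.151 to 0.340 CPM in XZ1516 by kallisto (-8.68 ± 0.18, adjusted p 2.72e-31), but the difference with allele-aware totals was 0.40 (adjusted p 0.222). Of the collagens with body-shape mutants 7 of 20 were 2-fold higher and 1 lower, yet without XZ1516 replicate 1 none was 2-fold higher. The gene bli-2 shows this, with 1.57 CPM in replicate 1 and 0.0602 and 0.0649 CPM in the other XZ1516 libraries, where N2 had 0.0346 to 0.0605 CPM.

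Lipid and stress genes had members in both directions. Of 53 genes of acyl-CoA handling and fatty acid oxidation 8 were 2-fold lower (15.1%) and 1 higher (1.89%), where 10.7% of all genes were lower and 5.07% higher. The acyl-CoA synthetase gene acs-2 fell from 18.3 to 24.5 CPM to 4.11 to 4.78 CPM (-2.21 ± 0.15, adjusted p 2.01e-15), and acdh-2, for an acyl-CoA dehydrogenase, rose from 68.7 to 79.1 CPM to 192 to 203 CPM (2.67-fold, adjusted p 7.70e-17). The fatty acid desaturase gene fat-5 fell (-1.44 ± 0.11, adjusted p 3.38e-14). Of 21 heat shock genes 11 were called higher and 3 lower, 2 of them by at least 2-fold and both higher. Among all genes tested 20.8% were called higher and 23.8% lower. Chosen after its values were seen, the mitochondrial chaperone gene hsp-6 was at 559 to 586 CPM in N2 and 865 to 890.5 CPM in XZ1516 (0.62 ± 0.05, adjusted p 9.34e-13).

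Housekeeping complexes showed few strong changes. None of 75 ribosomal protein genes and none of 33 proteasome genes tested passed 2-fold in either direction, with 61 and 25 of them not called. Of 40 respiratory chain genes 2 were 2-fold lower and none higher. No gene among 24 neuron and 17 body wall muscle markers was called at 2-fold, although without N2 replicate 1 3 of the muscle genes were 2-fold higher in XZ1516.

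Some genes were at or near 0 in XZ1516 and at 1 CPM or more in every other parental group. By a rule that asked for at least 1 CPM in N2 and in each other wild strain, the most negative against the other wild strains included T08B2.12, F43C11.7, msp-36, C14C6.5 and T16G12.3. The gene F43C11.7 (II, 2335897 to 2337696) was at 3.29 to 3.62 CPM in N2, at 1.24 to 10.6 CPM in the other wild strains and at 0 in XZ1516, at least 195-fold lower than N2. The gene C14C6.5 (WBGene00015759; V, 536628 to 537418, plus strand) was at 13.0, 11.3 and 9.61 CPM in N2 and 0.0358, 0 and 0.108 CPM in XZ1516 (-8.01 ± 0.36, adjusted p 8.14e-21). In the other wild strains it ranged from 1.44 CPM in ECA701, well below N2, to 39.7 CPM in ECA722. Its alleles in the F1 differed by a like amount, with 3 reads from XZ1516 and 2179 from N2 (-9.37 ± 0.46, adjusted p 6.33e-05). The gene T16G12.3 was at 55.9 to 62.8 CPM in N2 and 0.0216 to 0.0716 CPM in XZ1516 (-10.43 ± 0.17, adjusted p 1.61e-34). Every other wild strain was below N2 too, from 3.37 CPM in QX1211 and 4.28 CPM in CB4856 to 32.1 CPM in EG4348. It overlaps T16G12.12.

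Among the higher genes the largest bound was that of E02H4.8 (X, 14262802 to 14263573, minus strand), at 0 in N2 and 105, 98.5 and 83.6 CPM in XZ1516, at least 7331-fold higher. Of the other wild strains ECA701 had 72.4 CPM, ECA722 0.00924 CPM and the rest 0. The identical copies F45D11.15 and F45D11.16 were at 0 in N2 and 70.2 to 74.1 CPM each in XZ1516, while F45D11.14 near them on II was at 47.3 to 59.4 CPM in N2 and 0 in XZ1516. With allele-aware totals F45D11.14 was higher in XZ1516 (1.08, adjusted p 0.00140) and F45D11.15 was higher by 1.26, so the exchange between these copies depended on the count source. The gene tag-138 was at 0 to 0.0327 CPM in N2, 3.09 to 4.20 CPM in XZ1516 and 1.99 to 4.24 CPM in the other wild strains, so that N2 was the low strain.

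The count source was examined for the whole set of lower genes, since reads of a diverged strain can be lost or moved among copies. Of the 1763 lower genes 63 (3.57%) had a transcript of another length in the XZ1516 transcript set, against 4.66% of all genes tested. Equal length does not mean equal sequence. Reads specific to 1 allele made up a median of 13.5% of a gene's F1 counts in 2-fold lower genes. This share was 13.1% in 2-fold higher genes and 1.39% over all genes tested, for genes with at least 30 F1 counts. In genes at 0 in XZ1516 the median was 0%. With allele-aware gene totals 1713 of the 1763 could be tested, of which 1497 were still 2-fold lower, 1554 were called lower and 10 were called higher. Of the 273 genes at 0 in XZ1516, 230 of 251 tested were still 2-fold lower and 3 were called higher. The balance over all genes was 1616 lower to 852 higher with these totals.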

How the data were processed

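RNA of whole day 1 adults was sequenced after poly(A) selection with a directional kit, per the labels' protocols. The authors deposited estimated counts per transcript from kallisto and estimated counts per gene and allele, with transcript lengths in bases (other values) in the same files. Kallisto, Salmon 1.4, Trimmomatic 0.39, DESeq2 1.42.0 and the build ce11 are named, with no role given, per the submitters' processing notes. Estimated counts were summed per gene of the WBcel235 annotation (141 of 31973 transcripts had no match there), rounded and fitted in edgeR 4.0.16 (R 4.3.3, Python 3.11.15) over all 45 libraries in 15 groups, with TMM scaling, edgeR's filter on low counts (16424 of 19666 genes kept) and a quasi-likelihood test at a Benjamini-Hochberg adjusted p under 0.05. Fold changes are XZ1516 minus N2 in log2, with SE. Alleles in the F1 were compared by the same test on the authors' estimated counts per allele, with the library as a term, for genes whose reads specific to 1 allele averaged 10 or more over the F1 libraries. Allele-aware gene totals are the sums of both alleles in the deposited gene files, which hold N2 and XZ1516 alleles for XZ1516 libraries but N2 and QX1211 alleles for N2 libraries, per the file headers. Reads of the 2 groups were thus assigned against different allele sets. The fits were tested on simulated data.

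Totals of 45645900 to 87302600 counts in the 6 libraries set the counting limits. Samples were grouped by their titles, and 0 value columns were left without a sample. Replicate numbers were not used to pair samples, since same-numbered XZ1516 and N2 libraries did not all deviate together (correlations 0.13, -0.01 and 0.14). The comparison and the gene lists were chosen with earlier results of these data known. Genes were named by rank of fold change among called genes at 2-fold without overlap of the groups (all genes, genes with a name, abundant genes at 100 CPM or more), by rank within each list, by rank against the other wild strains, and for fog-2, sup-35, pha-1, peel-1 and zeel-1, and others are marked. Genes with 0 counts in a group are given by a bound against 3 counts over that group, and genes with 1 to 3 counts by a ratio with a 95% exact binomial interval. Alternatives changed the scaling, the filter, the tool (DESeq2 1.42.0), the libraries fitted, the gene totals, the length offset, the fold rule, the replicate block and each library. No sequence is printed.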

Additional observations from a re-analysis of the deposited data

Results flagged for a closer look

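Only the 169 named genes were searched, for opposite changes of at least 2-fold against N2 in XZ1516 and in the other wild strains. For 2 of them XZ1516 lay above N2 while the mean of the other 6 wild strains on the log2 scale lay below it. The difference itself was tested in edgeR, and the wild strains differed among themselves. The antidote gene pha-1, of a toxin and antidote pair with sup-35, was at 10.9, 9.82 and 10.8 CPM in N2 and 32.1, 34.1 and 32.2 CPM in XZ1516 (log2 fold change 1.64). The mean of the other wild strains lay below N2 (-1.16 ± 0.08 SE, adjusted p 3.50e-15), and the difference between both changes was 2.80 (adjusted p 1.29e-30). By strain pha-1 was at 0.0177 CPM in DL238, 9.35 in EG4348, 10.5 in ECA701, 12.6 in CB4856, 13.1 in QX1211 and 33.9 in ECA722, so that DL238 was the strain far below N2 and ECA722 was as high as XZ1516. The toxin gene sup-35 itself fell from 49.8, 53.5 and 50.7 CPM in N2 to 0.376, 0.452 and 0.562 CPM in XZ1516 (-6.81).

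The gene sdz-24 was at 3.61, 2.96 and 2.97 CPM in N2 and 16.7, 18.7 and 17.2 CPM in XZ1516 (2.47), while the mean of the other wild strains lay below N2 (-1.10 ± 0.14 SE, adjusted p 1.64e-08). The difference was 3.57 (adjusted p 1.15e-25). By strain sdz-24 was at 0.0894 CPM in CB4856, 0.499 in ECA722, 2.35 in ECA701, 3.77 in DL238, 4.69 in QX1211 and 5.36 in EG4348, so that 3 of the 6 lay above the N2 mean of 3.18 CPM. Both comparisons share the N2 libraries.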

How the results depend on the processing

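The counts of genes called, 2-fold lower and 2-fold higher stayed within 1.5 times of their values under all alternatives run, from 6342 to 7609 called, 1325 to 1859 lower and 665 to 909 higher, and lower calls were 63.7% to 70.5% of 2-fold calls. DESeq2 called 1792 lower and 825 higher. A replicate block gave 7609 calls (1818 lower, 833 higher); XZ1516 replicates 1 and 3 correlated best with their own number in N2 and replicate 2 did not. The allele counts moved: with at least 50 allele-specific reads 139 of the lower and 103 of the higher genes were called the same way in the F1, and without 1 F1 library 83 to 160 and 77 to 132. With allele-aware totals 4 of 169 named genes changed sign, F45D11.14 (1.08), col-92 (0.40), nspc-20 (1.09) and nlp-29 (0.061); the cause was not tested. Of the named genes 150 kept direction and call under every alternative in which they could be tested. Of 1260 counts in gene lists 52 moved by over 1.5 times. Counts of 0 or 1 limit how firmly absence can be stated.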
